A study of Homo sapiens with 8 samples.

Results

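P2RX7, an ion channel opened by extracellular ATP, was examined together with 9 genes of the neighbouring ATP receptors and of the NLRP3 inflammasome pathway, 10 of the 38551 genes with values. P2RX7 was chosen by its counts in the comparison used here, in which they fell strongly and tightly, so its decrease is described without a test. The remaining 9 genes, P2RX1, P2RX4, NLRP3, PYCARD, CASP1, CASP4, IL1B, IL18 and GSDMD, were taken by name. RNA-sequencing had been performed in MOLM-13, an established cell line from a human acute myeloid leukemia with KMT2A rearrangement (KMT2A-r). Of 8 libraries of polyA RNA, 4 came from cells given 100 nM PR-957 for 72 h and 4 from cells given the diluent DMSO for 72 h. PR-957, also named ONX-0914, is an inhibitor of PSMB8, a catalytic subunit of the immunoproteasome. No group carried a further agent or a genetic change, and all values describe this single cell line at this dose and time.

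P2X receptors are cation channels that open when ATP binds from outside the cell. P2RX7 needs higher ATP than its relatives, and in monocytes and macrophages its opening lets potassium leave the cell, which is a classical trigger of NLRP3. NLRP3 then recruits the adaptor ASC, encoded by PYCARD, which gathers pro-caspase-1. Active caspase-1 cuts the precursors of interleukin-1 beta and interleukin-18 and cuts gasdermin D, which forms pores in the plasma membrane. Caspase-4 senses bacterial lipopolysaccharide in the cytosol and cuts gasdermin D without ASC. These steps run largely on proteins, so mRNA levels give the amounts of transcript and not the activity of the pathway. In bulk RNA, fewer cells that express a gene and less RNA per cell cannot be told apart.

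Total counts ran from 16675036 to 23111223 per library, with the deepest in DMSO replicate 4, which also stood apart from the other DMSO libraries in its counts. Levels are CPM, counts scaled to a common library size with the factors of the TMM method. Over all tested genes the median log2 fold change was 0.003. Mitochondrially encoded genes held 1.94 to 2.75% of counts in DMSO and 4.15 to 5.24% in PR-957 libraries. The 8 myeloid markers were all measured, and their summed level was 1605 to 1679 CPM in the DMSO libraries and 2298 to 2546 CPM under PR-957. In the comparison described below, SPI1, LYZ and MPO were higher, PTPRC and FLT3 lower, and CD33, CEBPA and CSF1R did not pass. That is 62.5% called, against 46.6% of all tested genes. Mean levels rose most for LYZ (153 to 820 CPM) and MPO (175 to 506 CPM), so the sum does not describe the 8 markers alike. The 12 markers of other cell types summed to 2.51 to 4.67 CPM in the DMSO libraries and 3.03 to 4.78 CPM under PR-957, with the T-cell gene CD3E at 0 counts throughout. The part of these differences in the results below was not tested.

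To assess how the inflammasome genes responded to PR-957, counts of the 2 groups were compared across all genes by the quasi-likelihood test of edgeR, with p-values adjusted by Benjamini-Hochberg. Of the 10 genes, 9 passed the filter on low counts, and GSDMD did not. Among the 8 tested genes other than P2RX7, 5 were lower under PR-957 at an adjusted p under 0.05 (P2RX1, P2RX4, NLRP3, CASP4 and IL18), PYCARD alone was higher, and CASP1 and IL1B did not pass. That is 75% called, where 46.6% of all 13179 tested genes were called, 23.5% lower and 23.1% higher. A change of at least 1.5-fold together with a call was seen for P2RX4 and IL18, against 13.8% of all tested genes. In 6 of the 8 genes the PR-957 libraries did not overlap the DMSO libraries, as in 42.5% of all tested genes. The median log2 fold change of the 8 genes was -0.40.

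P2RX7 (chromosome 12, 121132819 to 121188032, plus strand, hg38) was measured with 2764 to 4094 counts in each DMSO library and 821 to 1092 in each PR-957 library. Its level was 176, 169, 167 and 179 CPM in DMSO replicates 1 to 4 and 46.8, 46.1, 49.9 and 46.2 CPM in PR-957 replicates 1 to 4. Within each group the 4 libraries lay close together, and the lowest DMSO library was far above the highest PR-957 library. The group means were 173 ± 5.59 and 47.2 ± 1.77 CPM (SD, n = 4 each). The log2 fold change was -1.87, so that 27.4% of the DMSO level remained. None of its exon bases was shared with another gene on the same strand.

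**Figure D1:**
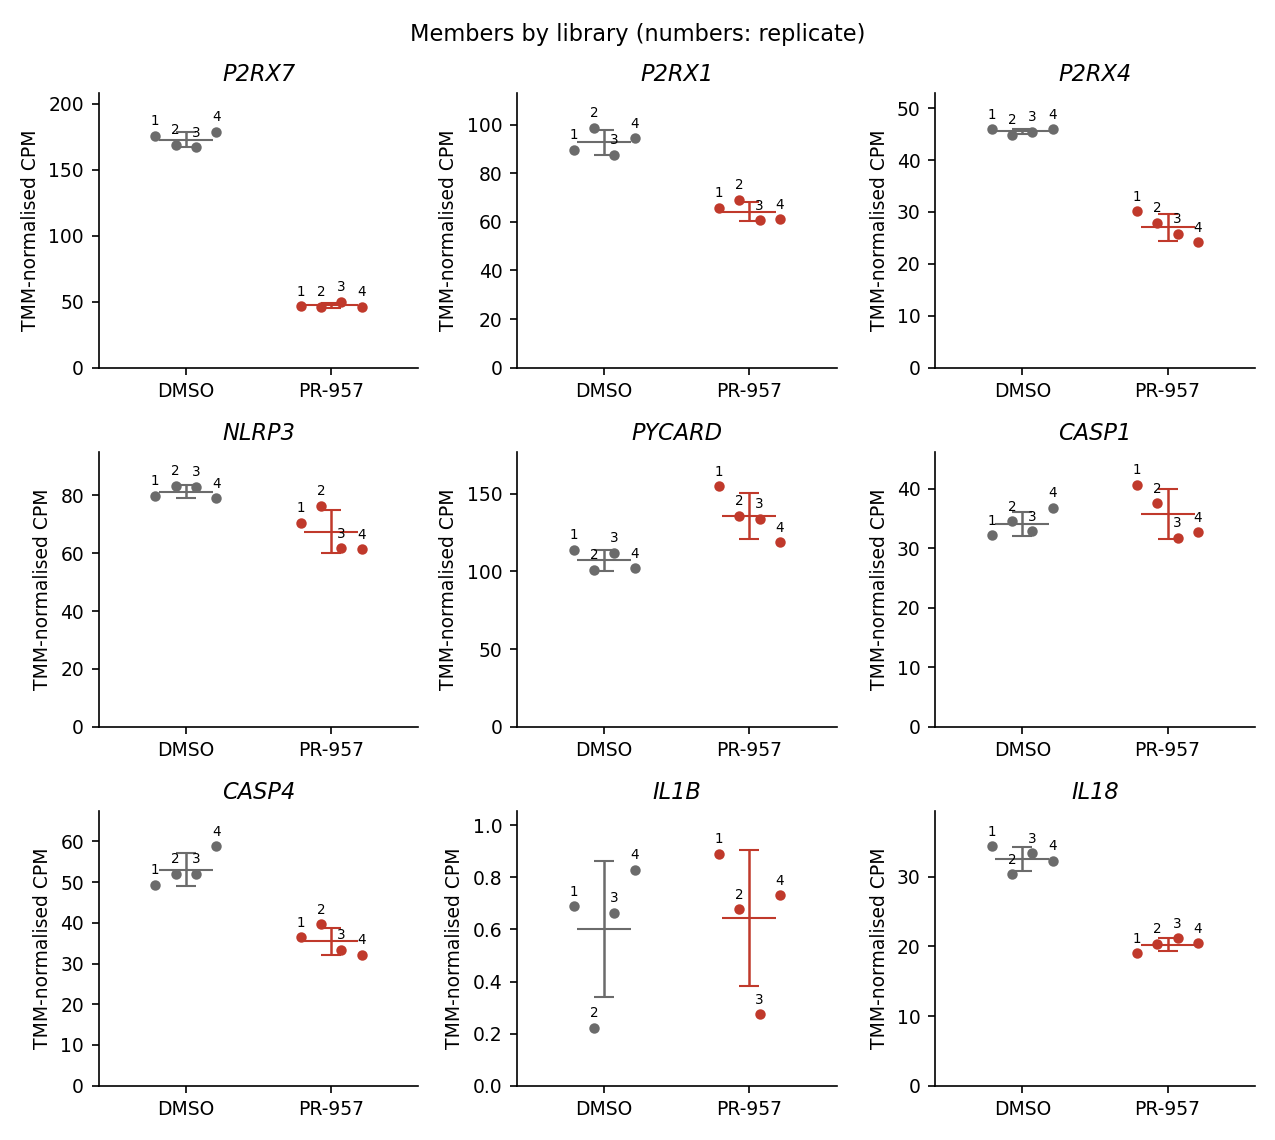
TMM-normalised CPM (linear axes that start at 0) of 9 genes in each of the 4 DMSO (grey) and 4 PR-957 (red) libraries, with the replicate number above each point and the group mean ± SD as a bar with whiskers. P2RX7 lies at 167 to 179 CPM with DMSO and at 46.1 to 49.9 CPM with PR-957, while the groups overlap for CASP1 and IL1B.

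P2RX4, the ATP-gated channel encoded next to P2RX7 and the broadly expressed member of the family in myeloid cells, was also lower. Its level was 46.0, 44.9, 45.5 and 45.9 CPM in DMSO replicates 1 to 4 and 30.2, 27.9, 25.8 and 24.2 CPM in PR-957 replicates 1 to 4. All PR-957 libraries were below all DMSO libraries, and the PR-957 libraries were spread more widely. P2RX4 fell by 0.75 on the log2 scale (SE 0.07, 95% interval -0.90 to -0.60, edgeR adjusted p = 7.74e-08), which is 1.69-fold. P2RX1, a fast desensitising ATP-gated channel of platelets and myeloid cells encoded on chromosome 17 (3896591 to 3916506), was at 89.7, 98.8, 87.7 and 94.5 CPM in DMSO replicates 1 to 4 and 65.8, 69.1, 60.7 and 61.2 CPM in PR-957 replicates 1 to 4. The groups did not overlap, and the log2 fold change was -0.53 (SE 0.06, 95% interval -0.66 to -0.40, edgeR adjusted p = 8.54e-07).

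The other 4 genes of the P2X family were low. P2RX5 was at 6.05 ± 0.961 CPM with DMSO and 6.28 ± 0.524 CPM with PR-957, with a log2 fold change of 0.06 (95% interval -0.25 to 0.37, edgeR adjusted p = 0.766). It shares 68.4% of its exon bases with a read-through transcript that runs into TAX1BP3, so its level is uncertain. P2RX2, P2RX3 and P2RX6 summed to 1, 0 and 6 counts over the DMSO libraries and to 0, 4 and 18 over the PR-957 libraries, and were not tested. Levels of different genes were compared per kilobase of exon. On that scale P2RX7 held 37.2 ± 0.864% of the summed P2X level in DMSO libraries, more than P2RX1 (30.4 ± 1.28%) and P2RX4 (28.8 ± 0.61%). Under PR-957 its share was 19.6 ± 1.49%, with P2RX1 at 40.5 ± 1.16% and P2RX4 at 32.7 ± 1.51%. The leading P2X transcript thus was P2RX7 in each of the 4 DMSO libraries and P2RX1 in each of the 4 PR-957 libraries. Shares sum to the whole, and the rises of P2RX1 and P2RX4 in share stand beside falls of both in CPM.

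P2RX7 and P2RX4 lie in tandem on the plus strand of chromosome 12, with 22.1 kb between the end of P2RX7 and the start of P2RX4 (121210096). To see whether lower levels were shared along this stretch, tested genes whose leftmost base lies within 250 kb of the span of P2RX7 were examined, from P2RX7 towards P2RX4. CAMKK2, which encodes a calcium-dependent kinase upstream of AMPK and starts on the opposite strand beyond P2RX4, was at 255, 254, 254 and 229 CPM in DMSO replicates 1 to 4 and 144, 149, 144 and 144 CPM in PR-957 replicates 1 to 4. It was lower by a log2 fold change of -0.77 (SE 0.05, edgeR adjusted p = 9.02e-10). The genes farther out did not share that direction. RNF34, a ubiquitin ligase gene, was higher (log2 fold change 0.36, SE 0.06, edgeR adjusted p = 0.000101). ANAPC5, a subunit of the anaphase-promoting complex, and KDM2B, a histone demethylase, gave 0.10 and 0.04 and did not pass (adjusted p = 0.144 and 0.589).

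**Figure D2:**
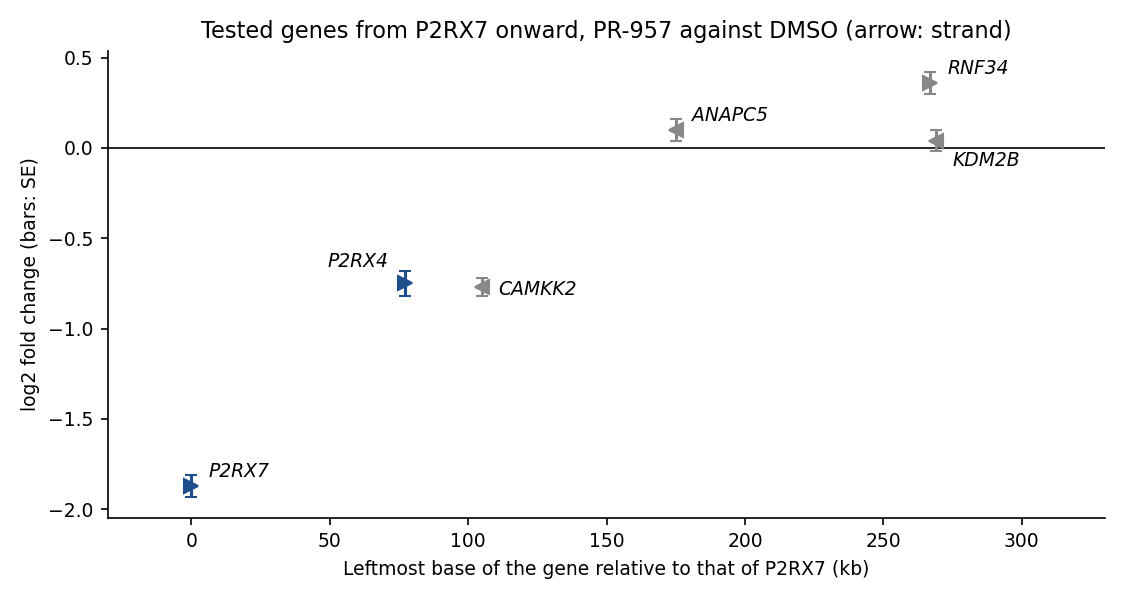
Log2 fold change of PR-957 against DMSO (y axis, bars are SE) for the tested genes from P2RX7 onward, placed by the distance of their leftmost base from that of P2RX7 in kb (x axis), with P2RX7 and P2RX4 in blue and arrowheads for the strand. P2RX7 (-1.87), P2RX4 (-0.75) and CAMKK2 (-0.77) lie below 0, and ANAPC5, RNF34 and KDM2B beyond them lie above 0.

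The promoters of P2RX7 and P2RX4 are shown because the adjacent genes were both lower, and that of PYCARD because it was the gene that rose. Sequences are from RefSeq (GRCh38.p14) and run from 250 bases before to 50 after a start of each gene, 5′ to 3′ on its strand. That start differs from the start of the counted gene model, which lies within each sequence. They are chr12:121132626-121132925 (plus strand) for P2RX7, chr12:121209879-121210178 (plus strand) for P2RX4 and chr16:31202711-31203010 (minus strand) for PYCARD. Capitals mark GGGCGG, the GC box, and GAGGAA, a core recognised by the myeloid factor PU.1, on either strand.
P2RX7: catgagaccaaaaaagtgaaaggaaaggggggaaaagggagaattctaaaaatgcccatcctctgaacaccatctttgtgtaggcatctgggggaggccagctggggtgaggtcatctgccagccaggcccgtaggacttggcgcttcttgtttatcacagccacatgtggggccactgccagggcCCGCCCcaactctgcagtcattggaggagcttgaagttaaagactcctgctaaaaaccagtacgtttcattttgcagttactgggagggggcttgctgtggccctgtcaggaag
P2RX4: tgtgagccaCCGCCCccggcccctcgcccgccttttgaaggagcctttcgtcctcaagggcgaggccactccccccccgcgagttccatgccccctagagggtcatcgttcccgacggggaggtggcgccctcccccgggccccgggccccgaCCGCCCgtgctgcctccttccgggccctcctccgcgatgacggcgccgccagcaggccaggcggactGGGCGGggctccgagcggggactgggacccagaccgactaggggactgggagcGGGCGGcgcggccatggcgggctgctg
PYCARD: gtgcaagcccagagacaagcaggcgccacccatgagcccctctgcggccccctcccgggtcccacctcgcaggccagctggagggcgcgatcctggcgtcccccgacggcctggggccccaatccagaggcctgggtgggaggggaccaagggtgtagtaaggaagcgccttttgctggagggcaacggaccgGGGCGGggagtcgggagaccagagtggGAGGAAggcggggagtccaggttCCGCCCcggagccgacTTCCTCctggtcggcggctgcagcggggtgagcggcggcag

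The promoters of the neighbours P2RX7 and P2RX4 differ in composition. That of P2RX7 holds 53.3% G and C with 4 CpG dinucleotides, and that of P2RX4 holds 76.0% with 33. Over 35116 promoters of the same length the median was 58.7% with 14 CpG, and 24.5% of them had fewer CpG than P2RX7 and 82.8% fewer than P2RX4. PYCARD had 72.0% with 23 CpG. The GC box was found once for P2RX7, 4 times for P2RX4 and 2 times for PYCARD, and 45.0% of all promoters hold at least 1. GAGGAA was found 2 times for PYCARD, 1 time for NLRP3, which was lower, and not for P2RX7, P2RX4, CASP4 or IL1B, where 27.9% of all promoters hold it. Of the 10 genes, 6 had a promoter in the table used, and among the others of these NLRP3 held 54.0% G and C with 5 CpG, CASP4 39.7% with 3 and IL1B 42.3% with 2. The CCAAT box, CCAAT, was found 1 time each for P2RX7, PYCARD and IL1B and 2 times for CASP4. It was not found for P2RX4 or NLRP3, and 34.6% of all promoters hold it. A TATA motif, TATAAA, was present for NLRP3 alone of the 6 and is held by 11.5% of all promoters. The E-box CACGTG, searched like the others on both strands, was in none of the 6 and is held by 7.26% of all promoters. The same was true of the AP-1 motif TGANTCA, with 7.71% of all promoters. The composite of C/EBP and ATF factors, TGATGCAA, was in none of the 6 either, against 0.866%. These matches describe letters only. No measure of factor binding or chromatin was part of these data.

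ATP and other nucleotides also act on G-protein-coupled P2Y receptors. Of 10 P2Y genes, 4 had 0 counts in every library and 3 were tested, all 3 of which were called higher, where 23.1% of all tested genes were. The list is small, and the call of P2RY1 was not stable. P2RY2, a receptor for ATP and UTP, was at 77.7, 80.7, 80.7 and 64.1 CPM in DMSO replicates 1 to 4 and at 115 to 138 CPM in PR-957 libraries. Its log2 fold change was 0.75 (SE 0.07, edgeR adjusted p = 2.24e-07), and the groups did not overlap. P2RY6, a UDP receptor, rose from 10.1 ± 0.849 to 17.4 ± 1.44 CPM (log2 fold change 0.79, SE 0.10, edgeR adjusted p = 2.56e-06). P2RY1, an ADP receptor, summed to 26 counts over the DMSO libraries and 57 over the PR-957 libraries, with a log2 fold change of 1.04 (SE 0.38, edgeR adjusted p = 0.0324). This call for P2RY1 was lost in 9 of 18 alternatives, among them DESeq2 (adjusted p = 0.108) and those leaving out any of DMSO replicates 2 and 4 and PR-957 replicates 1, 2 and 3, where the log2 fold change was between 0.87 and 1.08. Among 9 genes of ATP release and breakdown, 4 were tested and 2 were lower, a share of 50% called that is close to the 46.6% of all tested genes. ADA, the enzyme that turns adenosine into inosine, fell from 56.4 ± 4.40 to 40.3 ± 3.49 CPM (log2 fold change -0.49, SE 0.07, edgeR adjusted p = 2.13e-05). ADORA2B, an adenosine receptor gene named after its value was seen, had an edgeR adjusted p of 0.0496 (log2 fold change -0.30), just under the threshold. It did not pass in 12 of 19 alternatives, DESeq2 (adjusted p = 0.0753) and limma-voom (adjusted p = 0.0668) among them. On leaving out any of DMSO replicates 1 and 3 and PR-957 replicates 1, 3 and 4 it was lost too, with log2 fold changes between -0.32 and -0.24. PANX1, which encodes an ATP-releasing channel, and ENTPD1, which encodes the ectonucleotidase CD39, did not pass (log2 fold change 0.02 and 0.67, edgeR adjusted p = 0.852 and 0.0601). ENTPD1 lay near the threshold and passed in 8 of 19 alternatives, among them DESeq2 (adjusted p = 0.0479), the fit without DMSO replicate 3 (0.85 on the log2 scale) and that without PR-957 replicate 2 (0.84). PANX1 passed with replicates 1 and 2 only (0.26) and was at -0.21 with replicates 3 and 4 only.

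NLRP3, the sensor of the inflammasome (chromosome 1, 247416156 to 247449108, plus strand), was lower by a small amount. Its level was 79.9, 83.4, 83.0 and 79.1 CPM in DMSO replicates 1 to 4 and 70.6, 76.4, 61.7 and 61.3 CPM in PR-957 replicates 1 to 4. The groups did not overlap, with PR-957 replicates 3 and 4 lower than PR-957 replicates 1 and 2. The log2 fold change was -0.27 (SE 0.07, 95% interval -0.41 to -0.13, edgeR adjusted p = 0.00292). With replicates 1 and 2 only it was -0.15 and did not pass (edgeR adjusted p = 0.095), and with replicates 3 and 4 only it was -0.40.

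Among 11 other genes listed as inflammasome sensors, 7 were tested, of which 4 were lower and 2 higher, or 85.7% called against 46.6% of all tested genes. NLRP12, a sensor of monocytes and granulocytes that can restrain NF-kB signalling, was at 8.20, 9.52, 9.84 and 7.86 CPM in DMSO replicates 1 to 4 and 3.96, 2.98, 3.61 and 3.21 CPM in PR-957 replicates 1 to 4. No libraries overlapped, and NLRP12 fell by 1.36 on the log2 scale (SE 0.15, edgeR adjusted p = 3.94e-07). NLRP6 had few counts, 24, 13, 15 and 29 in DMSO replicates 1 to 4 and 3, 2, 5 and 4 in PR-957 replicates 1 to 4, with a log2 fold change of -2.55 (SE 0.42, edgeR adjusted p = 5.25e-05). IFI16, a nuclear DNA sensor, fell from 49.8 ± 6.54 to 31.1 ± 5.85 CPM (log2 fold change -0.68, SE 0.14, edgeR adjusted p = 0.00255). CARD8, named after its value was seen, was lower by less (-0.27, edgeR adjusted p = 0.000767).

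The 2 sensors that rose had few counts. NLRC4, which senses bacterial flagellin through NAIP proteins, summed to 58 counts over the DMSO libraries and 137 over the PR-957 libraries (log2 fold change 1.19, SE 0.37, edgeR adjusted p = 0.012), with overlapping groups. With replicates 1 and 2 only NLRC4 did not pass (0.90, edgeR adjusted p = 0.121). MEFV, the pyrin gene, was at 1.88, 2.51, 1.57 and 4.37 CPM in DMSO replicates 1 to 4 and 3.99 to 4.96 CPM in PR-957 libraries (log2 fold change 0.71, SE 0.25, edgeR adjusted p = 0.0279). DMSO replicate 4 was the high DMSO library, and without it the log2 fold change of MEFV was 1.11. On leaving out any of DMSO replicates 1, 2 and 3 and PR-957 replicate 1 it was 0.54 to 0.68 and did not pass. NLRP1 did not pass (log2 fold change -0.44, edgeR adjusted p = 0.264), with 0.28 in replicates 1 and 2 only and -0.85, which passed (edgeR adjusted p = 0.0237), in replicates 3 and 4 only. AIM2, the cytosolic DNA sensor, had 11 and 17 counts in the groups and was not tested, like the remaining sensor genes.

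PYCARD, which encodes the adaptor ASC (chromosome 16, 31201486 to 31202776, minus strand), was the 1 gene of the group that rose. It was at 114, 101, 112 and 102 CPM in DMSO replicates 1 to 4 and 155, 136, 134 and 119 CPM in PR-957 replicates 1 to 4. The lowest PR-957 library lay just above the highest DMSO library. Group means were 107 ± 6.77 CPM and 136 ± 15 CPM, and the log2 fold change was 0.35 (SE 0.07, 95% interval 0.20 to 0.50, edgeR adjusted p = 0.000611). Among 7 tested genes listed with it as adaptors and regulators, 1 was lower and 2 were higher, or 42.9% called against 46.6% of all tested genes. TXNIP, a thioredoxin-binding protein that has been linked to NLRP3 and is a sensor of glucose supply, was at 329, 288, 305 and 428 CPM in DMSO replicates 1 to 4 and 113, 134, 127 and 129 CPM in PR-957 replicates 1 to 4. All PR-957 libraries were far below, and TXNIP fell by 1.43 on the log2 scale (SE 0.12, edgeR adjusted p = 1.34e-05). DPP9, a peptidase that restrains NLRP1 and CARD8, and BRCC3, which removes ubiquitin from NLRP3, were higher by 0.41 and 0.20 on the log2 scale (edgeR adjusted p = 2.87e-05 and 0.00727, named after their values were seen). NEK7, a kinase that binds NLRP3, did not pass (log2 fold change -0.15, edgeR adjusted p = 0.134), but did with replicates 3 and 4 only (-0.27, edgeR adjusted p = 0.0462).

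Of the caspases, CASP4 was lower and CASP1 was not called. CASP4 (chromosome 11, 104942866 to 104968596, minus strand) was at 49.4, 52.1, 52.1 and 58.8 CPM in DMSO replicates 1 to 4 and 36.5, 39.7, 33.4 and 32.2 CPM in PR-957 replicates 1 to 4. The groups did not overlap, and the log2 fold change was -0.58 (SE 0.07, 95% interval -0.74 to -0.43, edgeR adjusted p = 3.3e-06). CASP1 (chromosome 11, 105025443 to 105035591, minus strand) was at 32.2, 34.5, 32.9 and 36.8 CPM in DMSO replicates 1 to 4 and 40.7, 37.6, 31.8 and 32.7 CPM in PR-957 replicates 1 to 4. The groups overlapped, since PR-957 replicates 1 and 2 were above all DMSO libraries and PR-957 replicates 3 and 4 were not. Its log2 fold change was 0.06 (SE 0.08, 95% interval -0.11 to 0.23, edgeR adjusted p = 0.555). Replicates 1 and 2 only gave 0.23, which passed (edgeR adjusted p = 0.0353), and replicates 3 and 4 only gave -0.12, which did not (edgeR adjusted p = 0.379). The genes lie 56.8 kb apart. In the stretch of 13 genes around them, 7 had 0 counts in every library, and CARD16, whose start resembles that of CASP1 so that reads may be split between them, did not pass (log2 fold change 0.15, edgeR adjusted p = 0.355). CASP8 was at 28 ± 1.33 and 26 ± 0.962 CPM (log2 fold change -0.11, edgeR adjusted p = 0.233). CASP5 summed to 8 counts over the DMSO libraries and 4 over the PR-957 libraries.

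IL18 (chromosome 11, 112143251 to 112164104, minus strand), the cytokine precursor that was measurable in these cells, was lower under PR-957. It was at 34.4, 30.4, 33.4 and 32.3 CPM in DMSO replicates 1 to 4 and 19, 20.4, 21.2 and 20.5 CPM in PR-957 replicates 1 to 4. Libraries within a group were close and the groups did not overlap. IL18 fell by 0.69 on the log2 scale (SE 0.07, 95% interval -0.84 to -0.53, edgeR adjusted p = 3.5e-07), which is 1.61-fold. IL18BP, the secreted protein that binds and blocks interleukin-18, rose from 3.08 ± 0.462 to 5.65 ± 0.628 CPM (log2 fold change 0.86, SE 0.17, edgeR adjusted p = 0.000335). IL18R1, a receptor chain for interleukin-18 named after its value was seen, was lower (log2 fold change -0.40, edgeR adjusted p = 0.00388). IL1B (chromosome 2, 112829751 to 112836843, minus strand) was barely transcribed, with 11, 4, 11 and 19 counts in DMSO replicates 1 to 4 and 16, 13, 6 and 13 in PR-957 replicates 1 to 4. The groups overlapped fully, and the log2 fold change of 0.06 had a 95% interval from -0.83 to 0.94 (SE 0.42, edgeR adjusted p = 0.926). A change of less than about that size was not detectable for IL1B at this depth. IL1RN, the interleukin-1 receptor antagonist, was at 11.4 ± 0.658 and 11.3 ± 0.797 CPM and did not pass.

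GSDMD, the pore-forming target of caspase-1 and caspase-4 (chromosome 8, 143553387 to 143563062, plus strand), had 0 counts in 7 libraries and 1 count in PR-957 replicate 4. Counting error alone would set a limit of 3 counts, or 0.131 to 0.188 CPM by library. The table also places GSDMD on 1 alternate contig of the genome, and the counting command did not ask for reads with several alignments, so these counts do not give its level. Of 6 other genes for gasdermins and membrane rupture, 3 were tested and 1 was called, or 33.3% against 46.6% of all tested genes. GSDMB was lower, from 13.4 ± 2.62 to 10.4 ± 0.526 CPM (log2 fold change -0.38, SE 0.12, edgeR adjusted p = 0.0149). DMSO replicate 4 was its highest library, and without it the log2 fold change was -0.25 and did not pass (edgeR adjusted p = 0.0689). NINJ1, which ruptures the membrane after pore formation, did not pass (log2 fold change -0.24, edgeR adjusted p = 0.0848). PJVK, named after its value was seen, did not pass either (log2 fold change -0.44, edgeR adjusted p = 0.198). GSDME did not pass the filter and was not tested, with 51 counts over the DMSO libraries and 9 over the PR-957 libraries. The groups did not overlap in CPM, and 5 alternatives that kept GSDME called it, DESeq2 among them.

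Receptors and adaptors that carry the interleukin-1 and interleukin-18 signal were called in both directions, 2 of 10 tested genes higher and 4 lower. That is 60% called against 46.6% of all tested genes, and 2 of the 4 lower calls did not hold on leaving out single libraries. MYD88, the adaptor shared by these receptors and most Toll-like receptors, rose from 31.8 ± 1.41 to 43.8 ± 1.14 CPM without overlap (log2 fold change 0.46, SE 0.06, edgeR adjusted p = 7.23e-06). Its kinase partner IRAK1 rose by 0.25 on the log2 scale (edgeR adjusted p = 0.000629), while the co-receptor gene IL1RAP was lower (log2 fold change -0.38, edgeR adjusted p = 0.000447), both named after their values were seen. SIGIRR, an inhibitory receptor, and TRAF6, a ubiquitin ligase below MYD88, were also named after their values were seen and were lower by little (log2 fold change -0.25 and -0.24, edgeR adjusted p = 0.0348 and 0.0379). SIGIRR did not pass without DMSO replicate 4 (-0.16) or when PR-957 replicate 2, 3 or 4 was left out (-0.26 to -0.19). TRAF6 did not pass when DMSO replicate 1 or 4, or PR-957 replicate 1, 2 or 4, was left out (-0.25 to -0.20). Among 7 tested receptors that prime NLRP3 and pro-IL-1 beta transcription, 1 was higher and 2 were lower, or 42.9% called against 46.6% of all tested genes. TLR2 rose by 0.29 on the log2 scale (edgeR adjusted p = 0.0192), but not on leaving out any of DMSO replicates 2 and 3 and PR-957 replicate 1 (0.23 to 0.27). TNFRSF1A, a receptor for tumour necrosis factor, was lower (log2 fold change -0.18, edgeR adjusted p = 0.0205, named after its value was seen), but it did not pass without DMSO replicate 3 (-0.15) or PR-957 replicate 4 (-0.14). TLR1, the partner of TLR2, was at 2.99 ± 0.944 and 1.94 ± 0.25 CPM (log2 fold change -0.64, SE 0.23, edgeR adjusted p = 0.0318). Without DMSO replicate 4, its highest library, the value was -0.40. On leaving out any of DMSO replicate 2 and PR-957 replicates 1, 2 and 4 it was -0.65 to -0.57, and none of these 5 fits passed. TLR4, named after its value was seen, was at 4.86 ± 2.28 CPM with DMSO and 9.12 ± 2.7 CPM with PR-957. The groups overlapped, and it did not pass (log2 fold change 0.89, SE 0.37, edgeR adjusted p = 0.087), but 6 alternatives called it.

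Over the whole pathway, 80 genes outside the group of 10 were found in the table, of which 13 had 0 counts in every library and 45 were tested. A count of 0 is not an absence of transcript for NLRP2 and NLRP7, which the table places on 9 other contigs each, nor for P2RY11, all of whose exon bases are shared with other genes. The low counts of NAIP and GSDMC, placed on 2 and 1 other contigs, cannot be read either. Copies shared between chromosomes X and Y were not looked for. The 0 counts of P2RY8 (chromosome X, 1462576 to 1537488) are therefore not shown to be an absence. Of the 45 tested genes, 11 were higher, 14 lower and 20 did not pass. That is 55.6% called against the 46.6% of all tested genes given above. Their median log2 fold change was -0.06. A call and at least a 1.5-fold change was found for 11 of them, against 13.8% of all tested genes. Of the 25 called genes, 12 passed under every one of 19 alternative settings. Of these, 6 were higher (P2RY2, P2RY6, DPP9, IL18BP, MYD88 and IRAK1) and 6 lower (ADA, NLRP12, IFI16, CARD8, TXNIP and IL1RAP). The same share was not worked out for all tested genes, of which 4681 to 6913 were called in each setting. Stability is therefore not shown to be a trait of these genes.

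**Figure D3:**
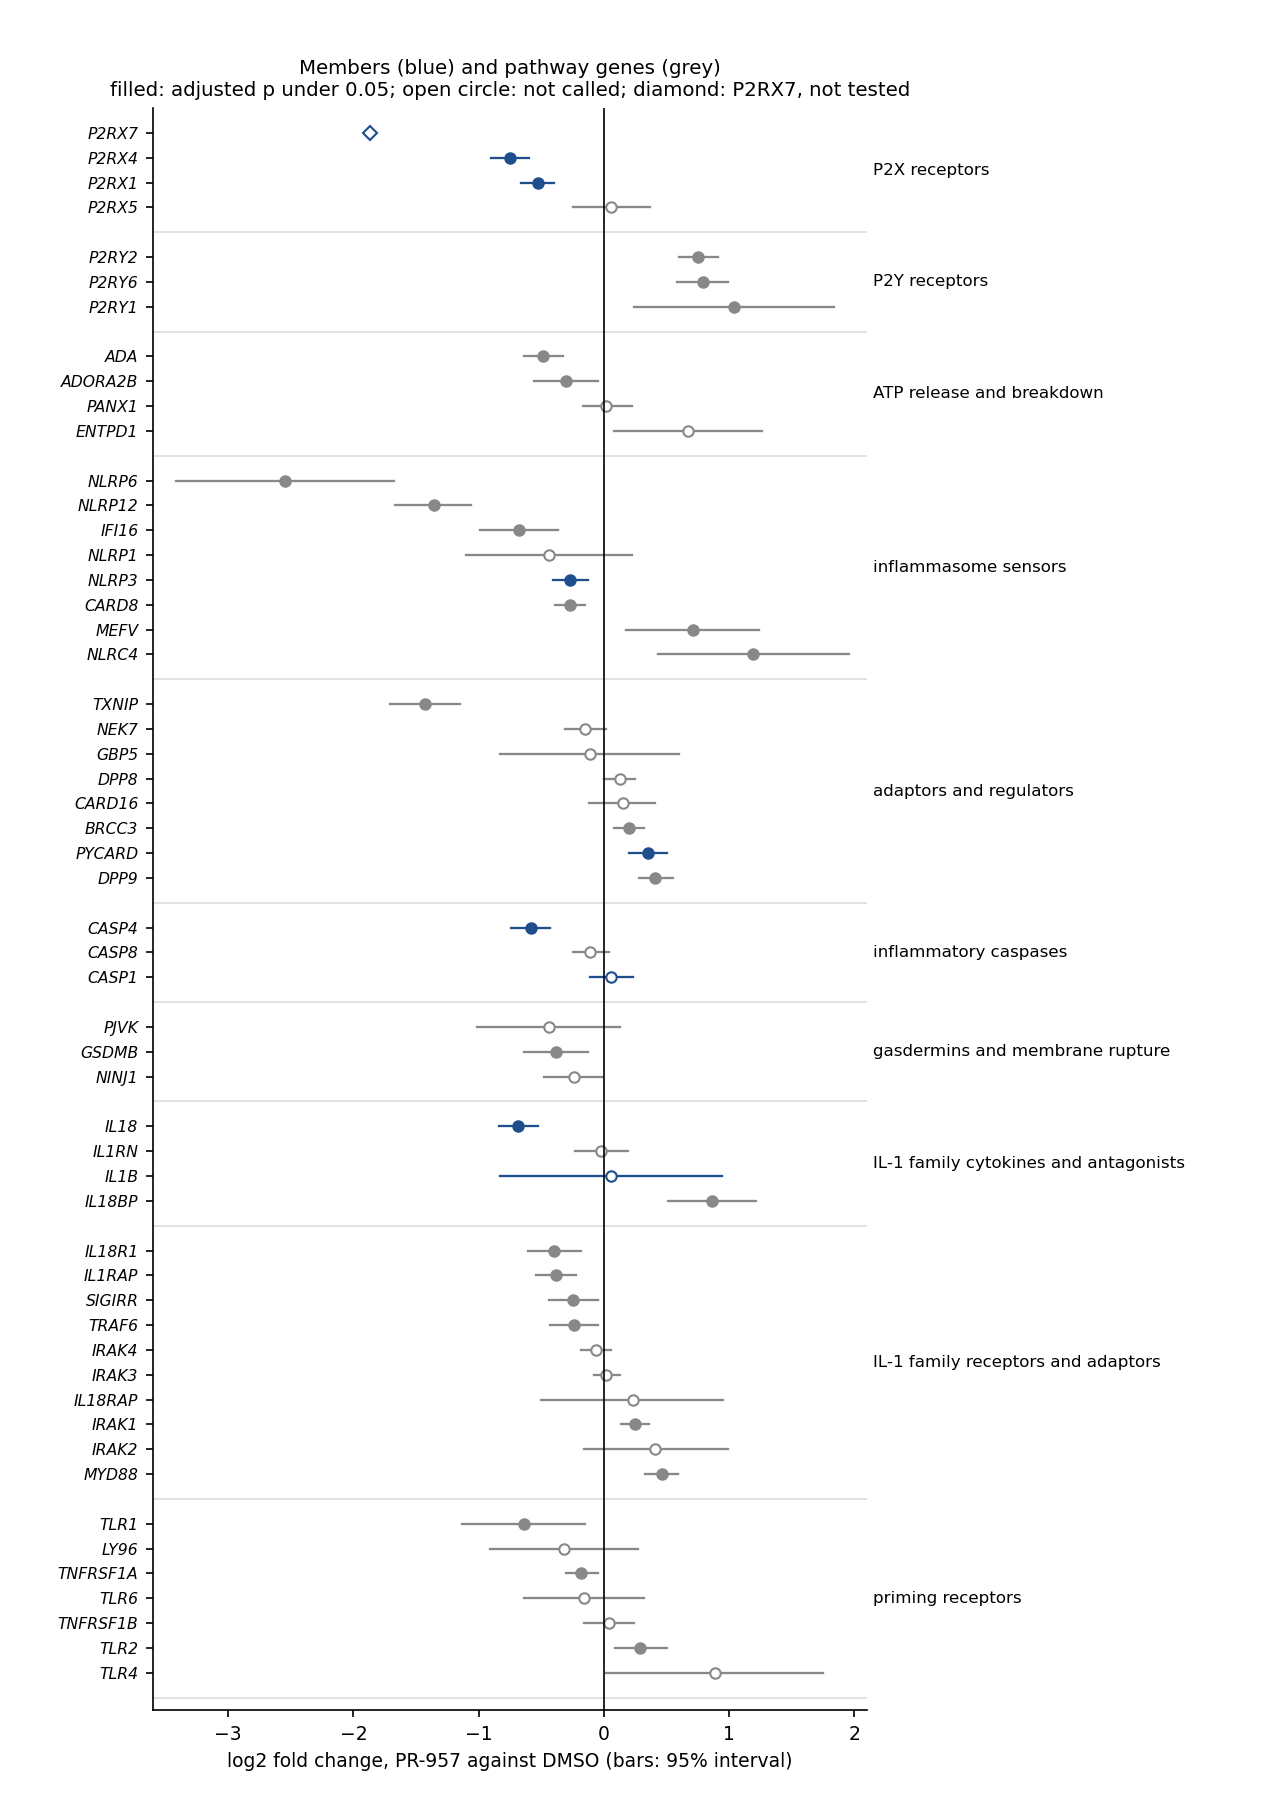
Log2 fold change of PR-957 against DMSO (x axis) with 95% intervals, except for P2RX7, for the tested genes of each role, with the genes of the main group in blue and other pathway genes in grey, filled where the adjusted p was under 0.05 and with P2RX7 as an open diamond because it was not tested. The P2X genes other than P2RX5 lie left of 0 and the 3 P2Y genes right of 0, and most other roles hold genes on both sides.

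When the genes were ranked by their level per kilobase of exon, PYCARD led in both groups with 138 ± 8.76 CPM per kb in DMSO and 176 ± 19.4 in PR-957 libraries. CASP4 came second with 36.0 ± 2.71 and 24.0 ± 2.29. P2RX7 was at rank 3 in DMSO libraries with 31.2 ± 1.01, above IL18 (28.3 ± 1.5), P2RX1 (25.5 ± 1.37), P2RX4 (24.1 ± 0.273), NLRP3 (17.6 ± 0.472) and CASP1 (11.8 ± 0.709). The ranges of the 4 libraries overlapped for IL18 and P2RX1 and for P2RX1 and P2RX4, and no other neighbours in that order overlapped. In PR-957 libraries P2RX7 was at rank 8 with 8.52 ± 0.319, below CASP1 (12.3 ± 1.45). From P2RX1 (17.6 ± 1.09) through IL18 (17.5 ± 0.794), NLRP3 (14.6 ± 1.58) and P2RX4 (14.3 ± 1.39) to CASP1, each overlapped the next. IL1B was near the bottom in both groups with 0.383 ± 0.167 and 0.41 ± 0.167.

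**Figure D4:**
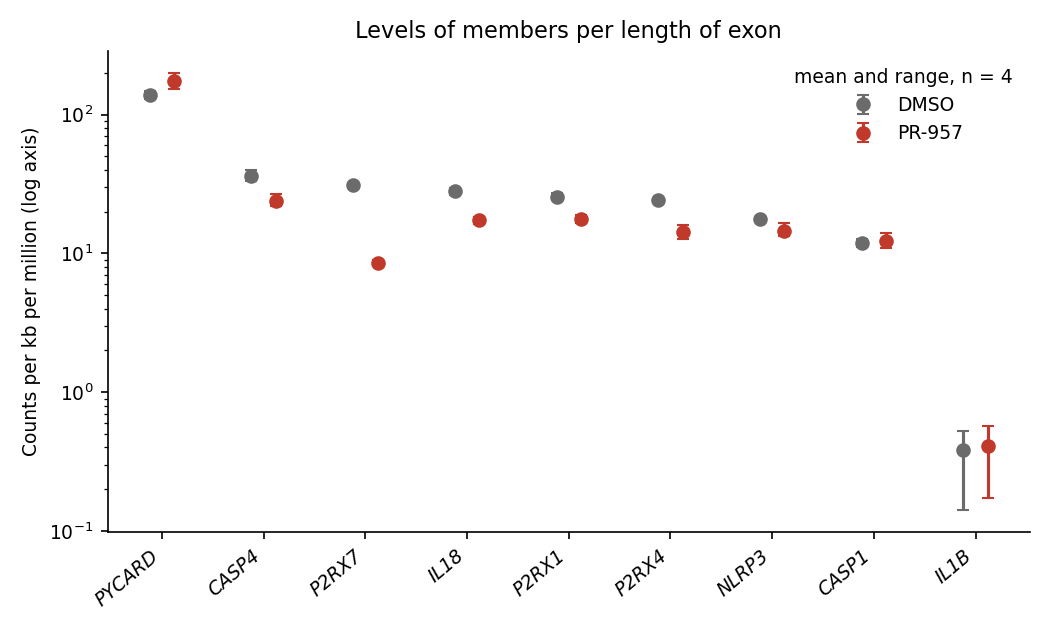
CPM per kb of exon (log axis) of 9 genes in DMSO (grey) and PR-957 (red) libraries, as the mean with the range of 4 libraries, ordered by the DMSO level. P2RX7 moves from 31.2 to 8.52, from rank 3 to rank 8, while PYCARD stays highest.

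Genes with a pattern like that of P2RX7 were sought by Pearson's r of log2 CPM over the 8 libraries, among 11270 genes of an average log2 CPM of at least 1. The libraries form 2 treatment groups, so any gene with a clean difference scores highly, and 1434 genes had r above 0.9 and 1180 below -0.9. The 5 highest were SYTL1 and GRB10 (r = 0.999 each) and RGS16, VEGFA and C3orf80 (r = 0.998 each), with log2 fold changes of -1.69, -1.32, -2.09, -1.90 and -1.77. The 5 lowest were RRBP1 (-0.998), GMPPB and E2F8 (-0.997 each) and ACOT11 and NCAPG2 (-0.995 each). After the mean of each group was taken off, MEIOB (0.962), BBC3 (0.956), SERPINF1 (0.943) and PRR7 (0.926) were among the highest. These are the top values of 11270 genes over only 8 libraries, where high values also arise by chance. P2RX7 itself varied little within a group (pooled SD 0.05 in log2 CPM). Within the group of inflammasome genes, r to P2RX7 was 0.99 for IL18, 0.97 for P2RX4, 0.96 for P2RX1, 0.94 for CASP4, 0.80 for NLRP3, -0.26 for CASP1 and -0.84 for PYCARD. With group means off, the same genes gave between -0.52 (NLRP3) and 0.37 (IL18). All of these values share the same 8 libraries and are descriptions.

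Replicates 1 and 2 differed from replicates 3 and 4 for several of these genes, a split already seen in earlier results of these libraries and not named in the labels. With replicates 1 and 2 only, the log2 fold change of CASP4 was -0.41 and with replicates 3 and 4 only -0.76. For PYCARD the values were 0.44 and 0.24, though its levels in PR-957 replicates 2 and 3 were alike (136 and 134 CPM). P2RX7 varied little, with -1.90 to -1.79 over 19 alternative settings, and the value nearest to 0 came from library totals alone. It was chosen for a strong, tight decrease in these same libraries, so this small spread is no separate support for that decrease. P2RX1, P2RX4, CASP4, IL18 and PYCARD passed in every one of the 19 settings. How many of all tested genes did so was not worked out.

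**Figure D5:**
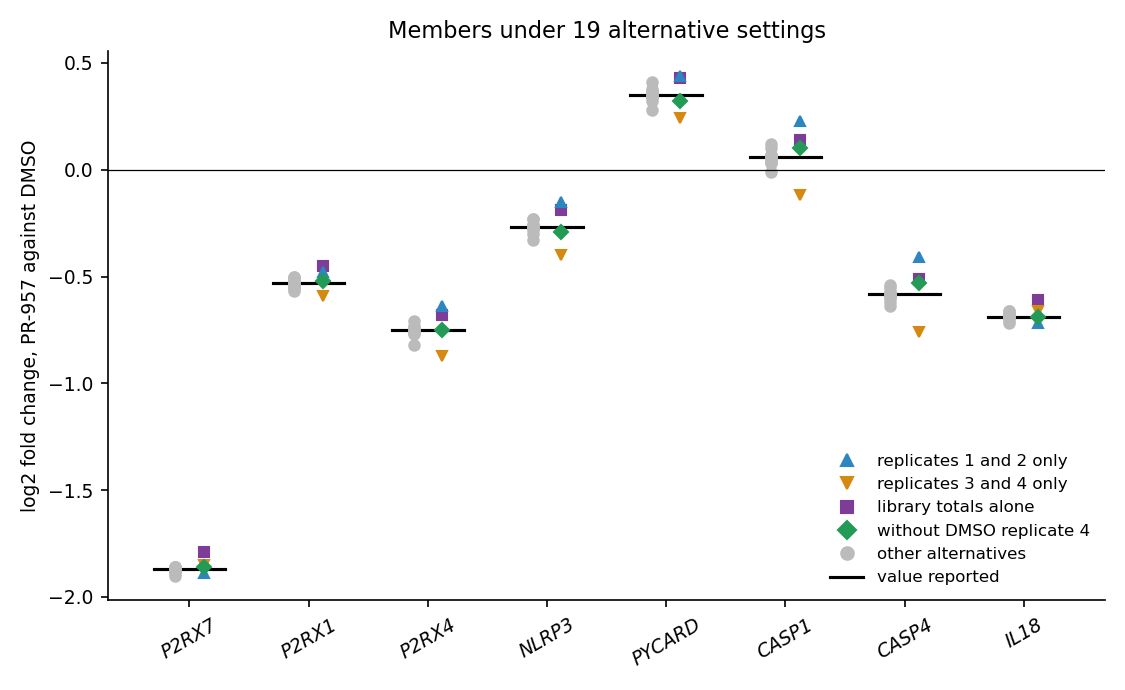
Log2 fold change of PR-957 against DMSO (y axis) of 8 genes as reported (black bar) and under 19 alternative settings, of which 4 have their own symbols and the rest are grey points. P2RX7, chosen for its tight decrease in these libraries, stays between -1.90 and -1.79. NLRP3 stays between -0.40 and -0.15, and CASP1 lies on both sides of 0 (-0.12 to 0.23).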

How the data were processed

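MOLM-13 libraries were grouped by their titles into 4 DMSO and 4 PR-957 replicates. Nothing in the sources used here says that replicates were separate cultures, so p-values measure the spread between libraries, which may be technical. Per the labels, reads were processed with Trimmomatic 0.39 and STAR 2.7.10a on hg38, and the file header gives featureCounts 2.0.1 with both ends mapped, on the reverse strand and on NCBI RefSeq models. The authors deposited raw counts per gene, without normalization, beside each gene's summed exon length. The header named 16 libraries, and only the 8 in the table were analysed here. Of 38557 gene rows, 6 had no values and 14724 were at 0 in every library. The authors' deposited table of their own comparison (mean counts, log2 fold changes and p-values) was not used.

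Groups were compared with the two-sided quasi-likelihood test of edgeR 4.0.16 (R 4.3.3) on TMM-scaled counts after filterByExpr, with Benjamini-Hochberg adjustment over 13179 genes and an adjusted p threshold of 0.05. The script was tested on simulated data. SE was taken as the size of the log2 fold change over the root of its F statistic, and CPM are TMM-normalised. No 2 replicates agreed within sampling noise: the lowest chi-square per gene was 3.32, where noise gives about 1. A count of 0 was read as up to 3 counts, or 0.131 to 0.188 CPM, and this covers counting error only.

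The genes and lists were chosen with earlier results of these data known. Named were the 10 genes, pathway genes called with at least a 1.5-fold change, the gene of lowest p in each list, tested genes whose leftmost base lay within 250 kb of the span of P2RX7 or of CASP1 and CASP4, the genes most like P2RX7 in pattern, and cell type markers. Any other gene was named after its value was seen. The results of some genes under this rule are not reported here. Alternatives were DESeq2 1.42.0, voom of limma 3.58.1, 3 other scalings, 2 other filters, a replicate block, a term or split for replicates 1 and 2 against 3 and 4, and leaving out each library.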

Additional observations from a re-analysis of the deposited data

Results flagged for a closer look

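In groups of 4 libraries, a library was singled out where its gap to the nearest other library took up most of the range of the group (above Dixon's 95% critical value). Over 63 named genes that passed the filter on low counts, 126 groups were looked at and 5 met this, where chance alone gives about 1 in 20, or 6.3. ADA in PR-957 replicate 2 was at 35.1 CPM, with the other PR-957 libraries at 41.3 to 42.4 CPM. SIGIRR, which encodes an inhibitory receptor of the interleukin-1 family, was at 30.6 CPM in DMSO replicate 4, with the other DMSO libraries at 24.7 to 25.3 CPM. Without DMSO replicate 4 the log2 fold change of SIGIRR was -0.16 against -0.25 with all libraries, and it did not pass (edgeR adjusted p = 0.122). CAMKK2, the neighbour of P2RX4, was at 229 CPM in DMSO replicate 4, with the others at 254 to 255 CPM, and at 149 CPM in PR-957 replicate 2, with the others at about 144 CPM. The groups of CAMKK2 stayed far apart in either case, and its log2 fold change was -0.81 to -0.76 when each library was left out in turn. NLRP1 in PR-957 replicate 3 was at 2.88 CPM, with the other PR-957 libraries at 2.28 to 2.36 CPM. None of the 9 tested genes of the main group met this criterion in either group. GSDMD, with 1 count in PR-957 replicate 4 and 0 in the other libraries, was not looked at.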

How the results depend on the processing

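Over 19 alternatives, between 4681 and 6913 of all genes were called (6143 as reported) and 20 to 28 pathway genes (25 as reported), and 6 of the genes taken by name in each. In 18 alternatives these 6 were the same genes. In replicates 1 and 2 only, NLRP3 was lost and CASP1 gained. P2RX7 moved beyond its spread with library totals alone (-1.79) and lay between -1.90 and -1.86 on leaving out 1 library. That scaling shifted the median of all genes to 0.081. Directions reversed for genes that were not called: with replicates 3 and 4 only for CASP1 (-0.12), IL1B (-0.64), CARD16 (-0.02) and PANX1 (-0.21), with replicates 1 and 2 only for NLRP1 (0.28), with library totals alone for IL1RN (0.06), and on leaving out 1 library for CASP1 (-0.01 to 0.12), IL1B (-0.22 to 0.33), P2RX5 (-0.06 to 0.11), PANX1 (-0.02 to 0.11) and IL1RN (-0.07 to 0.0054). Among called pathway genes, 13 lost their call under at least 1 alternative. NLRC4 lost it with replicates 1 and 2 only, IL18R1 with replicates 3 and 4 only, and BRCC3 with either. ANAPC5 gained one with library totals alone (0.18). The cause of these changes was not tested. Same-numbered replicates deviated together only weakly (correlations 0.151, 0.213, 0.0985 and 0.198). PR-957 replicates 1, 2 and 4 correlated best with their own number, and PR-957 replicate 3 slightly better with DMSO replicate 4 (0.105). These values do not settle whether the numbers pair the samples, and the fit reported here used no pairing. With the replicate block, 6913 genes and 28 pathway genes were called, the 25 as reported and ENTPD1, NEK7 and TLR4, P2RX7 was at -1.87, and the same 6 genes taken by name passed. At these depths, IL1B, P2RY1, NLRP6 and NLRC4 rest on few counts, and GSDMD cannot be read.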
